A study of Homo sapiens with 6 samples.

Results

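A bidirectional promoter is a stretch of DNA from which a pair of genes is transcribed in opposite directions. In HLF cells, 861 such promoters joining protein-coding genes were examined by ATAC-seq, an assay in which a transposase inserts sequencing adapters into chromatin wherever DNA is free of nucleosomes, so that accessible DNA appears as peaks of reads. A pair was counted when its genes lay on opposite strands, pointed away from each other and had transcription start sites (TSSs, taken as the 5′ ends of the genes in GENCODE release 44 on hg38) no more than 1000 bp apart on an autosome. The region of a pair was the span between its TSSs with 500 bp added on each side, so that it held the shared upstream DNA and the beginning of the first exon of each gene. The 861 pairs held 1659 genes, which is 8.68% of the 19111 autosomal protein-coding genes. Of these genes 62 belonged to more than 1 pair, and keeping 1 pair per locus left 799. With the 5′ end of the Ensembl canonical transcript of each gene as its TSS, 539 of the 861 pairs were still pairs. Membership of the set thus depended on the start used, and values with canonical starts are given further on.

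HLF is an established human liver cancer cell line. The study compared 3 libraries from cells treated with the solvent DMSO with 3 libraries from cells treated with 5 µM SNDX-5613 (revumenib), a small molecule that blocks the binding of menin to the histone methyltransferase MLL1. The labels give 24 h for both groups, whereas the study's text describes a longer treatment, so the duration is uncertain here. By the labels, all 6 libraries share the cell line, the medium and a single batch, and no genetic change is named. All results come from 1 cell line, and the study states that each replicate was a dish divided between the treatments, so p-values measure only the spread between these libraries. The promoters of 5 mesenchymal marker genes (VIM, CDH2, TWIST1, ZEB1 and SNAI2) had a peak in all 6 libraries, and 5 of 6 hepatocyte promoters (ALB, APOA1, SERPINA1, HNF4A and FOXA2) had none in any, the other, TTR, having a peak in 1 DMSO library. The labelled liver line thus had almost no peaks at the promoters of these hepatocyte genes. A weaker peak in such bulk samples cannot tell fewer cells with an open promoter from a less open promoter in each cell. The libraries held between 39452 and 110784 accessible regions on autosomes, and SNDX-5613 replicate 3, with 39452, stood below the other 5, which held at least 85767. Several comparisons between treatments and the largest rank differences of pairs are given with and without it. Those by gene family, those under other observations and those of other named pairs include it.

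Head-to-head gene pairs are common in mammalian genomes, and many encode housekeeping proteins of metabolism, translation and DNA repair. Their promoters are usually rich in CpG dinucleotides and poor in TATA boxes, and they carry binding sites for activators such as NF-Y, which binds CCAAT, and ETS factors, which bind CCGGAAG. The study is concerned with menin and NF-Y, which makes CCAAT-rich promoters shared by pairs of genes a natural place to look at accessibility.

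The DNA between the TSSs is shown for a few pairs that the results below turn on, read 5′ to 3′ on the plus strand of hg38, with the gene named first transcribed to the left and the other to the right. Capitals mark the NF-Y string CCAAT, the TATA box string TATAAA, the ETS string CCGGAAG and the CREB string TGACGTCA on either strand, so that ATTGG is CCAAT on the minus strand. The first pair encodes mitochondrial seryl-tRNA synthetase (SARS2) and the mitochondrial ribosomal protein MRPS12, the second joins enzymes of purine synthesis, the third has one of the highest-ranked peaks of all pairs, the next 2 join genes of histones H2A and H2B, and the last 3 are the pair with the largest rank difference between treatments and 2 pairs without a peak.
SARS2–MRPS12 (chr19:38930764-38930943, 4 CCAAT): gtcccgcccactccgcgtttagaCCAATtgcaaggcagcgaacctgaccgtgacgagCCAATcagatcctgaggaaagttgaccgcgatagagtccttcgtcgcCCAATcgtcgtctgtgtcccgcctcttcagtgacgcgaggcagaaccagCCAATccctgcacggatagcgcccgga
PPAT–PAICS (chr4:56435616-56435740, no CCAAT): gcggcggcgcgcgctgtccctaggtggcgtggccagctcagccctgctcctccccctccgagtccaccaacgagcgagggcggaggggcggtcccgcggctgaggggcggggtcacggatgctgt
ACOT8–ZSWIM3 (chr20:45857406-45857613, 3 CCAAT): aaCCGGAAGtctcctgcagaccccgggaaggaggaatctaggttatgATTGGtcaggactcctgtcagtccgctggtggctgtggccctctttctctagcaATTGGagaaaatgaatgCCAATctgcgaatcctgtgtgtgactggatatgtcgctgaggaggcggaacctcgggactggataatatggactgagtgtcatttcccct
H2BC12–H2AC12 (chr6:27146856-27147105, accessible histone pair): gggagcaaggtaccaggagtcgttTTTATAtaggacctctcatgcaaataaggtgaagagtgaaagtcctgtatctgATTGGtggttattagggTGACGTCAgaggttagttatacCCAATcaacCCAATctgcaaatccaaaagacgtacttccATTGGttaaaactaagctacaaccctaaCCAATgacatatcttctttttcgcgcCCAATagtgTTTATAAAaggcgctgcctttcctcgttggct
H2AC1–H2BC1 (chr6:25726563-25726776, histone pair without a peak): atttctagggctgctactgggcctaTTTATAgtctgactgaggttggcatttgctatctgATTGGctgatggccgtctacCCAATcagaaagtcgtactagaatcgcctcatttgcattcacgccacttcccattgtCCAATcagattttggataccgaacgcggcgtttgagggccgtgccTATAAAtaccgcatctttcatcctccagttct
ZNF214–NLRP14 (chr11:7020347-7020478, largest rank difference): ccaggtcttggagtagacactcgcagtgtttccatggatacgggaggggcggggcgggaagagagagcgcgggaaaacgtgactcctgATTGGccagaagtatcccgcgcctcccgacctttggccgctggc
DCST2–DCST1 (chr1:155033782-155033823, no peak): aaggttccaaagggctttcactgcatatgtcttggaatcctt
PLCZ1–CAPZA3 (chr12:18738101-18738118, no peak): gacctcatcaggaggctc

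The span of the SARS2–MRPS12 pair held 4 CCAAT motifs in 180 bp, that of PPAT–PAICS held none and had a GC content of 76%. Between the TSSs of H2BC12 and H2AC12 there were 6 CCAAT motifs and a TATAAA 30 bp upstream of each start, which is where TATA boxes usually lie. The H2AC1–H2BC1 span held 3 CCAAT motifs and TATAAA 31 and 32 bp from its starts, although that promoter had no peak in any library.

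Nearly every bidirectional promoter was accessible. In the DMSO libraries 94.7%, 95.1% and 94.9% of the 861 pairs overlapped a peak, and in the SNDX-5613 libraries 95.0%, 95.2% and 92.6% did. Single protein-coding promoters, defined as the 15213 autosomal protein-coding 5′ ends with no other protein-coding 5′ end within 2000 bp and measured over windows of the median pair width (1132 bp), had a peak in 55.7%, 58.1% and 57.0% of cases in DMSO and in 59.4%, 59.2% and 48.5% in SNDX-5613. The pairs were higher in 6 of 6 libraries, by 38.2 percentage points on average (SD 3.11 over 6 libraries, exact sign-flip test, two-sided, p = 0.03125, the smallest that 6 libraries allow, and unchanged by Benjamini-Hochberg adjustment over the 3 comparisons of this kind). A peak was present in all 6 libraries at 797 pairs (92.6%), against a background of 47.7% of the single promoters. Another 27 pairs had a peak in some libraries, 15 of them in all but SNDX-5613 replicate 3, and 37 pairs had none.

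The single promoters were not alike among themselves. The 1275 with the 5′ end of a long noncoding RNA gene (lncRNA) on the opposite strand within 1000 bp upstream had a peak in 80.2% to 86.6% of cases depending on the library, and the 13938 without one in 45.6% to 56.9%. Promoters divergent towards an lncRNA thus lay between the pairs and the remaining single promoters in every library.

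**Figure D1:**
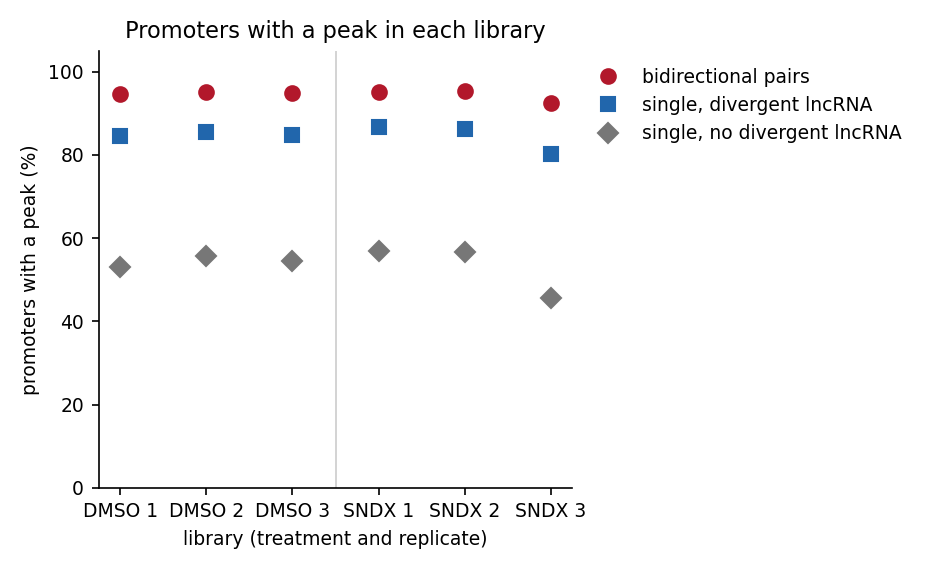
Share of promoters with a peak (vertical axis, %) in each of the 6 libraries (horizontal axis; SNDX stands for SNDX-5613), for the 861 bidirectional pairs, the 1275 single promoters with a divergent lncRNA and the 13938 without one. Each point is 1 library, and the pairs lie above both kinds of single promoter in all 6.

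Base composition moved with this difference. Of the pairs, 90.4% were CpG-rich (GC content of at least 50% and an observed over expected CpG ratio of at least 0.6 in 1000 bp), against 53.7% of the single promoters. Among CpG-rich promoters 95.5% to 97.8% of pairs and 76.3% to 85.9% of single promoters had a peak across the libraries, and the mean difference was 14.2 percentage points (exact sign-flip test, p = 0.03125, n = 6 libraries) in place of 38.2. The 83 pairs that were not CpG-rich had a peak in 65.1% to 74.7% of cases, and the 7045 single promoters of that class in 16.3% to 28.7%. The pairs were therefore the more often accessible in both classes and in every library.

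Peaks at the pairs were also stronger. Strength was expressed as a rank percentile, the percentage of all 32479 autosomal accessible sites with a peak in all 6 libraries whose −log10 p lay below that of the strongest peak at the promoter. The median pair ranked at 87.2, 87.6 and 87.6 in DMSO and at 87.5, 87.7 and 87.1 in SNDX-5613. The median single promoter ranked at 79.9, 80.3 and 80.4 in DMSO and at 79.8, 79.9 and 79.0 in SNDX-5613. The difference, 7.56 percentile points, had the same sign in 6 of 6 libraries (SD 0.380, exact sign-flip test, p = 0.03125). Among the pairs with a peak in all 6 libraries 39.4% had a median rank above 90 and 3.26% below 50, against 25.9% and 15.3% of the single promoters.

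**Figure D2:**
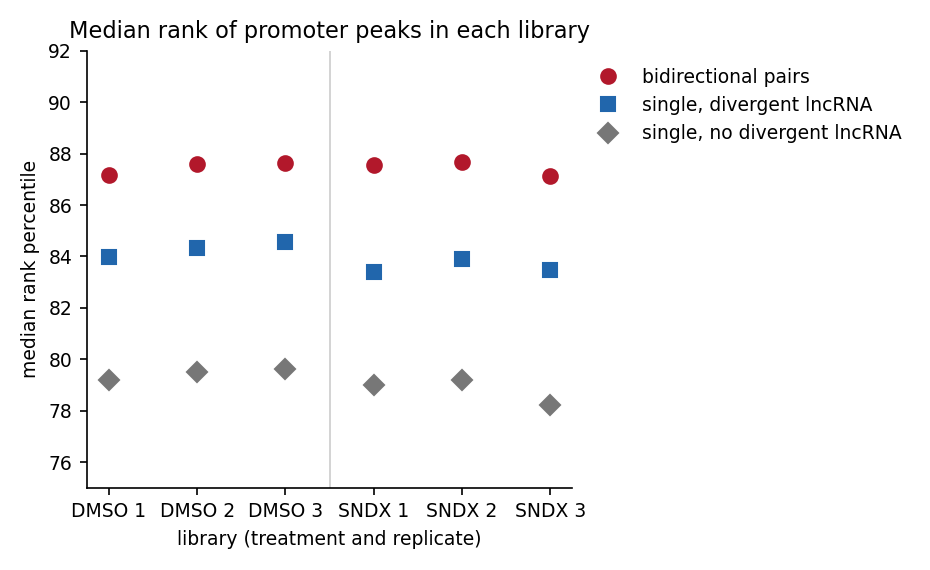
Median rank percentile of the promoter peak (vertical axis, 75 to 92) in each library (horizontal axis; SNDX stands for SNDX-5613), over promoters with a peak in all 6 libraries. The pairs lie between 87.1 and 87.7 in every library, above single promoters with a divergent lncRNA and above those without one.

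The accessible region at a pair was broader. Median widths were 814, 803 and 833 bp in DMSO, 776.5 and 828.5 bp in SNDX-5613 replicates 1 and 2, and 516 bp in replicate 3, the library with the fewest regions. The corresponding widths at single promoters were 701, 693, 739, 666, 737 and 450 bp. Against all single promoters together the pairs were wider in 6 of 6 libraries, by 97.5 bp on average (SD 17.9, exact sign-flip test, p = 0.03125). The difference was 60.2 bp when each library was reduced to the same number of regions. The median width of pairs was then still 516 bp in SNDX-5613 replicate 3, against 783.5 to 839 bp in the other 5 libraries. Single promoters with a divergent lncRNA had widths of 788, 789, 821.5, 749, 832 and 491 bp. These were close to the pairs and above them in SNDX-5613 replicate 2, so the breadth was not particular to pairs. The greater width did not come with a longer reach into the genes. Where 1 region held both TSSs it ran on for a median of 294 to 315 bp past each TSS in the other 5 libraries and 188 bp in SNDX-5613 replicate 3, and at single promoters the region ran 329 to 386 bp downstream, or 213 bp in that library.

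**Figure D3:**
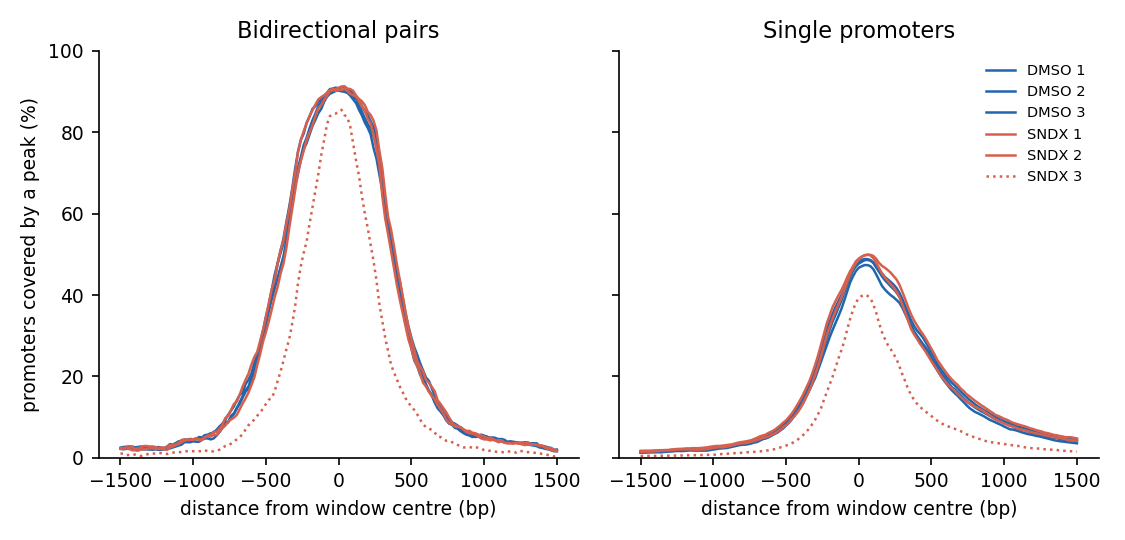
Percentage of the 861 pairs (left) and 15213 single promoters (right) covered by a peak (vertical axis) at each distance from the centre of the window (horizontal axis, bp), with 1 line per library, DMSO in blue and SNDX-5613 in red, SNDX-5613 replicate 3 dotted. Pairs are drawn on the plus strand and single promoters with the gene to the right. Coverage at the centre was 85.1% to 90.9% for pairs and 39.2% to 49.0% for single promoters, whose profile leans into the gene.

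The pairs' TSSs were 1 to 995 bp apart, with a median of 131 bp and an interquartile range of 69 to 248 bp. In most pairs a single accessible region held both starts, namely in 90.6%, 91.0% and 91.6% of the pairs with a peak in DMSO and in 91.9%, 91.8% and 83.9% in SNDX-5613. The share followed the spacing. In the 5 libraries other than SNDX-5613 replicate 3 it was 100% at 1 to 50 bp, 98.4% to 99.5% at 51 to 100 bp, 94.8% to 95.7% from there to 200 bp, 92.2% to 95.8% from there to 400 bp, and 50% to 57.4% over 400 bp. SNDX-5613 replicate 3 was lower in each class, at 97.7%, 96.7%, 90.1%, 83.6% and 28.6%.

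**Figure D4:**
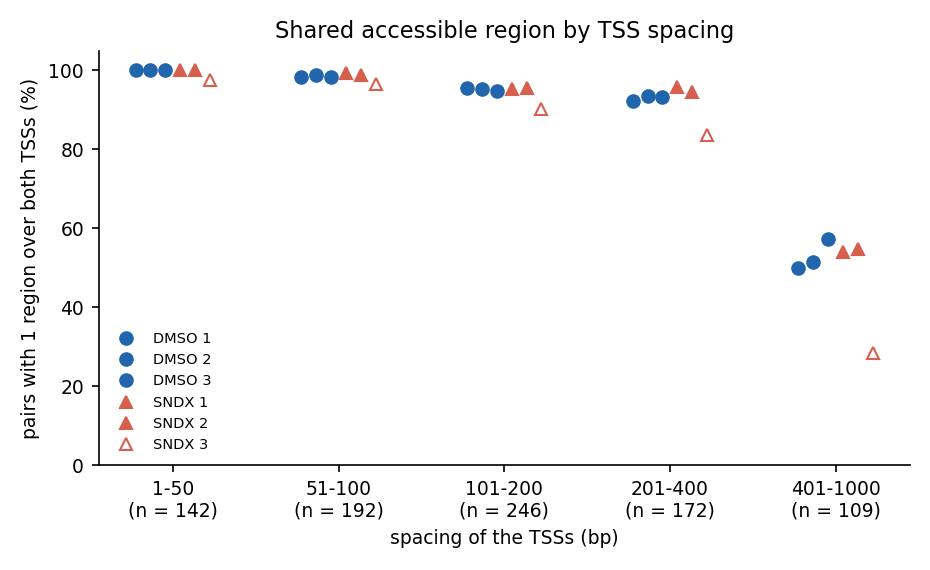
Share of pairs with a peak whose TSSs lie in 1 accessible region (vertical axis, %) by the spacing of the TSSs (horizontal axis, bp, with the number of pairs in each class). Circles are DMSO and triangles SNDX-5613 libraries, the open triangle being SNDX-5613 replicate 3. All points lie above 80% up to 400 bp, and none above 57.4% beyond.

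Separate regions at the 2 starts were rare, at 7 to 12 pairs in DMSO and 8 to 16 in SNDX-5613, and the same 5 pairs had them in all 6 libraries. These were PSMB1–TBP (995 bp), APBA3–MRPL54 (990 bp), MIX23–FAM162A (930 bp), EXTL2–SLC30A7 (897 bp) and BFSP1–DSTN (855 bp). PSMB1 encodes a proteasome subunit, TBP the TATA-binding protein, MRPL54 a mitochondrial ribosomal protein, EXTL2 a glycosyltransferase, SLC30A7 a zinc transporter, and DSTN the actin-severing protein destrin. At PSMB1–TBP, on chromosome 6 with starts at 170553307 and 170554302, the stronger region ranked at 97.1, 96.8 and 89.3 in DMSO and at 87.4, 89.4 and 90.4 in SNDX-5613, so that the groups overlapped.

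The strongest summit of a pair, the position of the highest peak, lay between the TSSs in 65.0% to 68.9% of pairs with a peak in DMSO and in 65.4% to 67.4% in SNDX-5613. Its median distance from the midpoint was 35 to 47 bp over the 6 libraries. Both values depended on the spacing. At 1 to 50 bp 24.6% to 31.3% of summits lay between the TSSs, and over 200 and up to 400 bp 81.4% to 86.1%. Over 400 bp the share was 73.5% to 78.6% and the median distance 247 to 270 bp. The summit fell nearer the minus-strand start in 50.8% to 51.7% of pairs so that neither side prevailed. The position was repeatable, because among the 812 pairs with a peak in the 5 libraries other than SNDX-5613 replicate 3 the summit moved by a median of 30 bp between libraries, and by no more than 50 bp at 72.5% of them. Library medians of the rank were 81.6 to 85.1 at 1 to 50 bp, 86.0 to 86.6 at 51 to 100 bp, 88.8 to 89.97 from there to 200 bp, 87.4 to 90.6 from there to 400 bp and 84.5 to 87.4 beyond. The ranges of the classes over 100 and up to 400 bp overlapped.

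Just inside the limit of the rule, at spacings over 900 bp, 14 of 16 pairs had a peak in all 6 libraries, and just outside it, at spacings over 1000 and up to 1100 bp, so did 8 of 9 pairs that were not counted.

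Well known pairs of this kind were looked up by name. Of 11 such pairs 4 met the rule, and 9 met it when the 5′ end of the Ensembl canonical transcript was used. None of 14 genes of the study's pathway (MEN1, KMT2A, KMT2B, ASH2L, WDR5, RBBP5, DPY30, PSIP1, NFYA, NFYB, NFYC, RUNX3, MYC and SNAI2) was in a pair. SARS2–MRPS12 (chromosome 19, starts at 38930763 and 38930944), whose sequence is shown above, ranked at 98.9, 98.8 and 98.5 in DMSO and at 95.9, 95.1 and 89.2 in SNDX-5613, and every SNDX-5613 value was below every DMSO value. PPAT–PAICS (chromosome 4, starts at 56435615 and 56435741) ranked at 92.6, 90.2 and 94.4 in DMSO and at 95.9, 88.6 and 91.4 in SNDX-5613, with overlapping groups and the broadest region of the 4, 1558 to 1581 bp in the 5 libraries other than SNDX-5613 replicate 3. At SIRT3–PSMD13, which joins a mitochondrial deacetylase to a proteasome subunit over 35 bp of chromosome 11, ranks were 91.1, 79.8 and 78.5 in DMSO and 77.1, 70.4 and 77.7 in SNDX-5613. Here too every SNDX-5613 value was below every DMSO value, as at 8.05% of all autosomal sites with a peak in all 6 libraries. PRKDC–MCM4 joins the DNA-dependent protein kinase to a subunit of the replicative helicase over 7 bp of chromosome 8. It ranked at 86.2, 81.7 and 88.9 in DMSO and at 80.5, 82.7 and 67.9 in SNDX-5613, and its groups overlapped.

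The 5 pairs with the highest median rank were ACOT8–ZSWIM3, ATPAF2–GID4, TOM1L2–DRC3, TOP3A–SMCR8 and AURKA–CSTF1. ACOT8 encodes a peroxisomal thioesterase, ATPAF2 an assembly factor of ATP synthase, GID4 a subunit of a ubiquitin ligase, TOP3A a topoisomerase, and AURKA the mitotic kinase Aurora A. ACOT8–ZSWIM3 ranked at 99.95, 99.94 and 99.96 in DMSO and at 99.94, 99.94 and 99.78 in SNDX-5613, with a fold enrichment of 17.9 to 25.7 over the background set by the peak caller. The highest ranks did not all come with a high fold enrichment. Its median over the libraries was 14.4 at TOM1L2–DRC3, 16.1 at AURKA–CSTF1, 16.9 at TOP3A–SMCR8 and 18.0 at ATPAF2–GID4. Library medians over all pairs were 11.7 to 17.4. TOM1L2–DRC3, ATPAF2–GID4 and TOP3A–SMCR8 lay near each other on chromosome 17, the others on chromosome 20. Other sites within 500 kb of them had median ranks of 48.4 to 68.2, against 50 for all sites, a range much like the 44.3 to 67.7 around the 5 lowest-ranked pairs described next, and the part of DNA copy number in these ranks was not tested.

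The lowest median ranks among accessible pairs belonged to KCTD19–LRRC36, PAQR9–U2SURP, RDH13–EPS8L1, NFE2–COPZ1 and ILDR2–MAEL. KCTD19–LRRC36, spaced 38 bp, ranked at 8.91, 3.62 and 4.16 in DMSO and at 4.90, 12.2 and 7.62 in SNDX-5613. NFE2 encodes a transcription factor of blood cells and COPZ1 a coat protein of the Golgi, and their shared promoter ranked at 10.4 to 18.2 in DMSO and 15.7 to 25.7 in SNDX-5613.

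The pairs were grouped by gene family. H2A and H2B histone genes were the most often paired, 25 of 36 autosomal genes (69.4%) lying in 15 pairs, 12 of which had a peak in all 6 libraries and 3 in none. Their median rank was 70.1, 78.3 and 78.8 in DMSO and 80.0, 82.4 and 78.3 in SNDX-5613, below the median of all pairs in each library and with overlapping groups (difference between treatments 4.52). All 15 held CCAAT within 150 bp of the midpoint and 11 held TATAAA, compared with 40.7% and 4.99% of all pairs. In the 12 pairs that joined an H2A to an H2B gene the starts were 170 to 251 bp apart. The span between them had 3 to 6 CCAAT motifs and a GC content of 38.3% to 48.9%. In 8 of the 12 it held TATAAA, whose end farther from the start lay 28 to 32 bp from it. The 2 of the 12 without a peak, H2AC1–H2BC1 and H2AC25–H2BC26, carried CCAAT as well, and H2AC1 and H2BC1 are known as histone genes of the testis. H2AC17–H2BC17 ranked at 69.9, 79.3 and 84.0 in DMSO and at 86.5, 86.4 and 92.2 in SNDX-5613, and H3C12–H2BC17 shares that peak. These 2 of the 12 accessible histone pairs, which are a single observation, had every SNDX-5613 rank above every DMSO rank, and none had every one below. Over all 32479 accessible sites 8.57% were higher and 8.05% lower in this sense, and the counts for each family are to be read against these shares. Near-identical histone genes can share reads, so their peaks are less certain.

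Genes of the mitochondrial ribosome lay in 18 pairs (17 of 78 genes), of which 17 had a peak in all 6 libraries, with median ranks of 84.8 to 86.3 in DMSO and 87.1 to 87.9 in SNDX-5613. The medians of the groups did not overlap and differed by 2.18 (exact permutation test, p = 0.1, the smallest that 3 against 3 libraries allow). Of the 17 pairs 1, SARS2–MRPS12, was lower and none was higher in every SNDX-5613 library, near the 8.05% and 8.57% of all sites. MRPL47–NDUFB5 and MRPL47–ENSG00000288698 share a peak, as do PSMA2–MRPL32 and ENSG00000256646–MRPL32. Genes of the respiratory chain and ATP synthase lay in 23 pairs (22 of 100 genes), 21 of them with a peak in all 6 libraries, with median ranks of 86.6 to 92.04. Among them ATP5MK–PDCD11, which joins a small ATP synthase subunit to a factor of ribosome assembly, ranked between 97.2 and 99.6, and NDUFS1–EEF1B2, which joins the largest subunit of complex I to a translation factor, ranked at 91.5, 95.7 and 91.7 in DMSO and at 95.8, 97.5 and 96.5 in SNDX-5613. ATP5F1A–HAUS1 ranked lower, at 84.4, 86.3 and 90.3 in DMSO and at 79.9, 76.1 and 83.6 in SNDX-5613. Of the 21 pairs, 3 were higher and 1 was lower in every SNDX-5613 library, beside 8.57% and 8.05% of all sites. NDUFA11–VMAC and NDUFA11–ENSG00000267314, both higher, share a peak, and the counts are no result about the family.

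Genes of DNA replication and repair lay in 23 pairs (23 of 85 genes, 27.1%), and 22 had a peak in all 6 libraries, with median ranks of 90.1 to 93.5. Of these 22, 3 were higher and 1 was lower in every SNDX-5613 library, beside 8.57% and 8.05% of all sites, so that the counts are no result about the family. LIG1–ZSWIM9, with DNA ligase I, ranked at 88.0, 88.7 and 90.2 in DMSO and at 94.6, 95.7 and 92.1 in SNDX-5613. XRCC3–ZFYVE21, with a factor of homologous recombination, ranked at 90.6, 93.7 and 94.0 in DMSO and at 96.1, 96.9 and 97.7 in SNDX-5613. PCNA–CDS2, with the sliding clamp of the replication fork, ranked between 96.7 and 98.8 and its groups overlapped. Zinc finger genes lay in 27 pairs (30 of 503 genes), all with a peak in all 6 libraries, and 2 of the 27 were higher and 6 lower in every SNDX-5613 library, beside 8.57% and 8.05% of all sites. Of the mitochondrial tRNA synthetase pairs, LYRM4–FARS2 and SARS2–MRPS12, 2 of only 3, were lower in every SNDX-5613 library (8.05% of all sites), and RARS2–ORC3 ranked between 94.4 and 99.7 with overlapping groups. SARS2–MRPS12 is the same pair that was counted with the mitochondrial ribosome. The collagen pair COL4A4–COL4A3 had a peak in 4 of 6 libraries.

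The following 7 short motifs were searched on both strands in 300 bp around the midpoint of each pair and around the matching position of every single promoter, none of the strings containing another. CCAAT (bound by NF-Y) was found at 40.7% of pairs, 34.6% of single promoters and 34.8% of all 19111 autosomal protein-coding promoters. The respective shares were 70.8%, 51.01% and 53.6% for GGGCGG (SP factors), 27.5%, 9.89% and 12.1% for CCGGAAG (ETS factors), 9.29%, 3.04% and 3.72% for GCGCATGC (NRF1), 6.04%, 2.91% and 3.43% for AAGATGGC (YY1), 3.95%, 2.08% and 2.27% for TGACGTCA (CREB and ATF factors), and 4.99%, 11.1% and 10.0% for TATAAA. ETS and NRF1 strings were thus markedly more frequent at pairs than at single promoters, and TATAAA was less frequent. The pairs had a median GC content of 64.3% in these windows and the single promoters 60.7%, and the part of base composition in these shares was not tested.

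Pairs with some motifs had stronger peaks. The 329 accessible pairs with CCAAT had median ranks of 89.7 to 91.5 in the 6 libraries and the pairs without it 84.3 to 85.5. The same comparison gave 90.2 to 93.7 and 87.0 to 87.5 for TGACGTCA (33 pairs with it), and 78.5 to 86.6 and 87.2 to 87.8 for TATAAA (36 pairs). Neither direction was particular to pairs. Between single promoters with and without the string the difference was 3.84 to 5.97 percentile points for TGACGTCA and -7.93 to -4.52 for TATAAA. A peak in all 6 libraries was found at 98.7% of the pairs with CCGGAAG, at 90.2% of those without it and at 83.7% of the pairs with TATAAA. The higher rank with CCAAT was not particular to pairs, since single promoters with CCAAT ranked 8.43 to 9.67 percentile points above those without it in the 6 libraries. Among pairs the difference was 4.22, 5.83 and 5.25 percentile points in DMSO and 6.25, 7.04 and 5.44 in SNDX-5613. The groups overlapped and the difference of 1.14 was within the spread of the libraries (exact permutation test, two-sided, p = 0.2, n = 3 and 3). This depended on the setting. With motifs searched within 250 bp of the midpoint the difference was 1.67 (exact permutation test, two-sided, p = 0.1). Without SNDX-5613 replicate 3 it was 0.983 (exact permutation test, two-sided, p = 0.1). Under the other alternatives the exact permutation test gave p = 0.2 to 0.5.

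With strength taken as −log10 p, the pairs as a class differed between treatments by less than the spread of the libraries. Medians by fold enrichment, which did not overlap between the groups, are given further on. The share of pairs with a peak differed by -0.619 percentage points between treatments (DMSO 94.9 ± 0.232, SNDX-5613 94.3 ± 1.48, SD, n = 3 each, exact permutation test, two-sided, p = 0.9), and by 0.232 without SNDX-5613 replicate 3. The median rank differed by -0.00513 percentile points (p = 1, exact permutation test), the share with 1 region over both TSSs by -1.79 points (p = 1), or 0.857 without SNDX-5613 replicate 3, and the share with the summit between the TSSs by -1.29 points (p = 0.4, both by exact permutation). Adjusted over the 6 comparisons between treatments, the p-values were 0.6 to 1. No pair had a peak in 3 of 3 libraries of one group and 0 of 3 of the other, whereas 0.144% of the 162030 autosomal sites did so in favour of SNDX-5613 and 1.19% in favour of DMSO. Among the 15213 single promoters 16 and 17 did so, which is so rare that the absence of such pairs is no result about them.

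The rank difference between pairs and single promoters was larger in every SNDX-5613 library. It was 7.21, 7.30 and 7.20 percentile points in DMSO and 7.73, 7.73 and 8.15 in SNDX-5613, so the groups did not overlap, and their means differed by 0.631 (exact permutation test, two-sided, p = 0.1, the smallest that 3 against 3 libraries allow, and 0.6 after adjustment), or by 0.271 without SNDX-5613 replicate 3. The single promoters were at a mean of 80.2 ± 0.245 in DMSO and 79.6 ± 0.519 in SNDX-5613 (SD, n = 3 each) and the pairs were at 87.5 ± 0.260 in DMSO and 87.4 ± 0.282 in SNDX-5613. Within CpG-rich promoters alone the treatment difference was 0.530.

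Individual pairs were compared by asking whether the ranks of the groups overlapped. Every SNDX-5613 rank was above every DMSO rank at 51 of 797 pairs (6.40%), and below at 66 (8.28%). The background over all 32479 sites was 8.57% and 8.05%, so the shares of the pairs were near or below the background. Without SNDX-5613 replicate 3, 98 of 812 pairs were above and 93 below, with a background of 14.3% and 14.4%. The split depended on the measure of strength. When sites were ranked by fold enrichment, 102 pairs (12.8%) were above and 24 (3.01%) below, with a background of 7.97% and 6.8%, and the median rank of the pairs differed by 5.91 (exact permutation test, p = 0.1). SNDX-5613 replicate 3 carried most of that difference, with a median of 84.1 against 73.3 and 72.9 in the other SNDX-5613 libraries and 70.0 to 72.0 in DMSO, and without it the difference was 2.09, with 153 pairs above and 51 below (18.8% and 6.28%, background 13.5% and 12.9%). Of the single promoters, 11.5% were above and 3.45% below by fold enrichment over all 6 libraries, and their median rank differed by 4.92. Without SNDX-5613 replicate 3, 17.0% were above and 8.59% below, and the median differed by 1.56. The shift by fold enrichment was thus not particular to pairs.

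**Figure D5:**
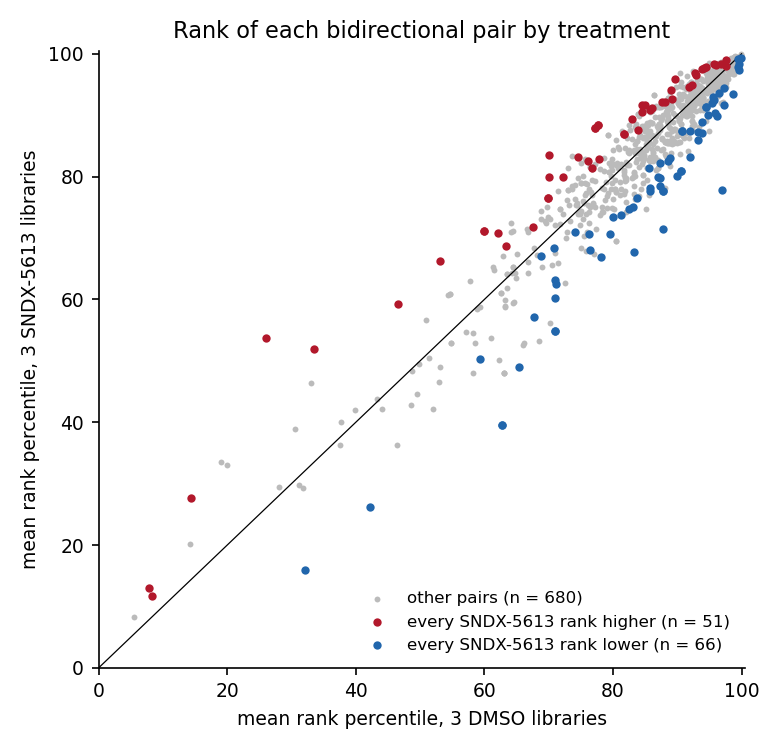
Mean rank percentile of each of the 797 pairs with a peak in all 6 libraries in the 3 DMSO (horizontal axis) and 3 SNDX-5613 libraries (vertical axis). The diagonal marks equal ranks. Red points are the 51 pairs with every SNDX-5613 rank above every DMSO rank, blue points the 66 with every one below, and grey points the other 680.

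The 5 largest differences among the pairs that ranked higher were at ZNF214–NLRP14, CCDC38–AMDHD1, GPC2–STAG3, ILDR2–MAEL and TSPAN19–LRRIQ1. NLRP14, STAG3 and MAEL are known from germ cells, STAG3 as a cohesin subunit of meiosis and MAEL as a factor of transposon silencing, and AMDHD1 is an enzyme of histidine breakdown. ZNF214–NLRP14, on chromosome 11 with starts at 7020346 and 7020479, ranked at 33.5, 25.2 and 19.6 in DMSO and at 48.5, 54.2 and 58.5 in SNDX-5613, a difference of 27.7. Its DNA, shown above, held 1 CCAAT. CCDC38–AMDHD1 ranked at 37.6, 30.2 and 32.5 in DMSO and at 46.3, 51.7 and 57.9 in SNDX-5613. GPC2–STAG3 ranked at 66.3, 71.6 and 72.4 in DMSO and at 78.7, 80.5 and 91.4 in SNDX-5613. These pairs were chosen for not overlapping, so that their values are a description. In each of the 5 the rank was highest in SNDX-5613 replicate 3, and without it the differences were 25.3, 15.5, 9.51, 10.1 and 6.97 in the order named.

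The 5 largest differences in the other direction were at TMEM276–KIFC2 and ENSG00000291316–KIFC2, which share 1 peak, ATP6V1G2-DDX39B–NFKBIL1, KLLN–ENSG00000289051 and ACACA–TADA2A. KIFC2 encodes a kinesin motor, NFKBIL1 an inhibitor-like protein of the NF-κB family, ACACA the acetyl-CoA carboxylase of fatty acid synthesis, and TADA2A a subunit of histone acetyltransferase complexes. ACACA–TADA2A ranked at 92.3, 85.5 and 85.5 in DMSO and at 83.1, 78.4 and 53.0 in SNDX-5613, a difference of -16.3, or -7.00 without SNDX-5613 replicate 3. ATP6V1G2-DDX39B–NFKBIL1 ranked at 97.8, 96.5 and 96.4 in DMSO and at 94.0, 94.7 and 45.0 in SNDX-5613, and its difference of -19.0 became -2.57 without that library. At KIFC2 the difference was -23.2, and -12.7 without it. At KLLN–ENSG00000289051 the difference was -16.5, and -5.30 without that library. Of the 66 pairs that ranked lower, 44 had their lowest rank in SNDX-5613 replicate 3, as 30 of the 51 that ranked higher had their highest.

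The 37 pairs without a peak in any library included genes of restricted expression. The 10 with the shortest spacing were PTPN3–PALM2AKAP2, PLCZ1–CAPZA3, CIDEB–LTB4R, LANCL1–CPS1, PRSS54–GINS3, DCST2–DCST1, WNT3–WNT9B, ZDHHC19–SLC51A, SOX30–C5orf52 and RASL12–KBTBD13, spaced 12 to 56 bp. PLCZ1, CAPZA3, DCST1, DCST2 and SOX30 are known from sperm and the testis, and CPS1 is the urea cycle enzyme of hepatocytes. The spans of PLCZ1–CAPZA3 and DCST2–DCST1, printed above, held none of the NF-Y, TATA, ETS, CREB and SP strings. At 24 of the 37 pairs the canonical start of either gene lay over 500 bp from the 5′ end used by the rule. CPS1, SOX30, WNT3 and WNT9B were among these genes. Of the 37 pairs, 13 had a peak in all 6 libraries within 500 bp of the canonical start of one of their genes, for example of GINS3, a subunit of the replicative helicase, and of LANCL1, and 23 had none at either canonical start in any library. Of the 37, 16 were CpG-rich. With canonical starts throughout, 909 pairs (95.0% of those found) had a peak in all 6 libraries and 27 had none, against 53.8% of single promoters with a peak in all 6.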

How the data were processed

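Omni-ATAC libraries of HLF cells were analysed, 3 treated with DMSO and 3 with 5 µM SNDX-5613, grouped by the labels. The authors trimmed reads with Trim Galore 0.6.7, aligned them to hg38 with Bowtie2 2.3.4.1, marked duplicates with Picard 2.20.0 and called peaks per library with MACS2 (tools and build per the submitters' processing notes, the paper's methods and the labels). The deposited narrowPeak tables give for each summit a fold enrichment (a ratio to the caller's local background), and the authors' −log10 p and −log10 q values. Reads per library are not given there, so the depth behind a peak is unknown, and the number of regions was used to describe each library. Whether reads were shifted for the transposase and duplicates removed before calling is not given in the sources used here, and either could move summits or peak strength slightly. Consensus region sets combining replicates were not used here.

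Summits of 1 region were merged, keeping the highest −log10 p, and only the 22 autosomes were used. No region ran past a chromosome end of the reference. Gene starts came from GENCODE release 44, and sequences were read from hg38. Pairs with a gene known by identifier only (64) were kept. Single promoters were extended upstream by 131 bp, the median pair spacing. Comparisons within libraries used exact sign-flip tests and comparisons between treatments exact permutation tests, both two-sided. p-values were adjusted by Benjamini-Hochberg over the 3 within-library and over the 6 treatment comparisons. Python 3.11.15, numpy 2.4.6 and pysam 0.24.0 were used, and functions were tested on simulated data. Alternatives were a stricter −log10 q of 3, equal region numbers, an overlap of 100 bp, flanks of 250 bp, canonical starts, 1 pair per locus, other sets of single promoters, ranking by fold enrichment, a wider motif window, leaving out each library, and pairing by replicate number.

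Named pairs were textbook pairs and pairs with genes of the study, the 5 highest and 5 lowest ranks, the 5 largest differences in each direction among pairs whose groups did not overlap, the 10 closest pairs without a peak, and the 5 widest pairs with separate regions. Named members of families were chosen after their values were seen. The pairs, families and lists were chosen with earlier results of these data known.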

Additional observations from a re-analysis of the deposited data

How the results depend on the processing

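The larger share, rank and width of pairs than of single promoters kept their direction under all alternatives tried, with ranges of 14.2 to 43.9 percentage points, 5.54 to 8.54 percentile points and 60.2 to 135 bp. Leaving out 1 library gave 37.1 to 38.8 points, 5.54 to 7.60 percentile points and 94.4 to 104 bp, each at p = 0.0625 by the exact sign-flip test, the smallest that 5 libraries allow. Among treatment comparisons, the median rank of pairs, at -0.00513, became 0.0342 at −log10 q of at least 3, 0.0746 with equal region numbers, 0.0139 with 100 bp overlap, 0.0411 with 250 bp flanks, 0.0749 with canonical starts, 0.0285 with 1 pair per locus, 5.91 by fold enrichment, and 2.09 by fold enrichment without SNDX-5613 replicate 3, a combination chosen after seeing the data. Leaving out 1 library gave -0.153 to 0.0806. The share of pairs with a peak became 0.155 with equal region numbers and ranged from -1.10 to 0.232 when 1 library was left out, and the share with 1 region over both TSSs from -3.14 to 0.857, 0.857 being without SNDX-5613 replicate 3. The difference to single promoters (0.271 to 0.994), the summit share (-2.51 to -0.594) and the CCAAT difference (0.690 to 1.67) kept their sign under all alternatives. Pairs higher in every SNDX-5613 library numbered 102 by fold enrichment, 153 by fold enrichment without SNDX-5613 replicate 3, and 85 to 111 when 1 library was left out, pairs lower 24, 51 and 93 to 119. With fewer libraries the background rises too, to 12.4% to 14.5% higher and 12.1% to 14.4% lower. Pairs gained numbered 0 to 1 and lost 0 to 2 when 1 library was left out. The cause of these changes was not tested, except that fewer libraries overlap less often.

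Same-numbered libraries did not deviate together (correlations over pairs 0.0949, -0.0321 and 0.0701), so the numbers were not taken to pair the libraries. With a replicate block, the exact sign-flip test of the 3 differences left the values at -0.619, -0.00513, 0.631, -1.79, -1.29 and 1.14 for the share, rank, difference to single promoters, shared region, summit and CCAAT comparisons, and no call changed, the smallest p it allows being 0.25.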

Other observations

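Pairs with TATAAA within 150 bp of the midpoint had median ranks of 78.5, 82.2 and 82.8 in DMSO and of 84.7, 86.4 and 86.6 in SNDX-5613 (36 pairs with a peak in all 6 libraries), so that the groups did not overlap. Histone H2A and H2B pairs were 11 of the 43 pairs with this string. Of these histone pairs H2AC1–H2BC1 and H3C7–H2BC9 had no peak and are not among the 36, and H2AC17–H2BC17 and H3C12–H2BC17 share a peak. Pairs with GCGCATGC, the string of NRF1, had median ranks of 88.8, 90.1 and 89.3 in DMSO and of 86.3, 88.7 and 84.8 in SNDX-5613 (77 pairs), without overlap as well. Both were picked among 7 strings after their values were seen and are given without a test.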
